A study of Mus musculus with 24 samples.

Results

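The regions described here are stretches of open chromatin of the mouse mandibular process at stage E12.5 that had peaks again in forelimb cartilage and none in Meckel's cartilage at E14.5. They were chosen by the ATAC-seq peaks themselves. All peaks of 8 lists were merged, and a region was kept when it held a peak in 2 of 2 E12.5 lists, in at least 2 of 3 forelimb cartilage (FL) lists and in 0 of 3 Meckel's cartilage (MC) lists. Of 157305 merged regions on the autosomes and X, 369 met this rule, or 0.235%. They are called limb-kept here, by the rule alone.

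ATAC-seq reads open chromatin through a transposase that inserts into accessible DNA, and the histone mark H3K27ac, read here by CUT&Tag, lies on active enhancers and promoters. All libraries came from wild-type C57BL/6 mouse embryos. The groups were E14.5 forelimb cartilage freed of surrounding connective tissue (3 ATAC-seq and 3 H3K27ac libraries), E14.5 Meckel's cartilage bars (3 and 3), and whole E12.5 mandibular processes (2 ATAC-seq libraries, no H3K27ac), a tissue that holds every cell type of the early jaw. The description field of the E12.5 samples names another stage and assay, and their titles and protocols were followed. Nothing in the labels says whether replicates were separate animals or pools, so the spread between them may be technical.

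Meckel's cartilage is a rod of cartilage around which the lower jaw forms, and it arises from cranial neural crest cells that fill the mandibular process. Forelimb cartilage arises from lateral plate mesoderm, under positional control by Hox genes. Enhancers lie mostly away from gene starts and are often open in some tissues and closed in others, whereas most promoters of widely used genes are open everywhere.

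The ATAC lists held 47152 to 70636 peaks in FL, 43205 to 54192 in MC and 70042 to 74706 at E12.5. Read depth is unknown, since the lists give peaks and not reads. E12.5 replicate 1 stood apart: its peaks covered 85.6 Mb, against 48.2 Mb in replicate 2. The Jaccard index of covered bases between both was 0.198, against 0.425 to 0.452 between FL lists. E12.5 replicate 2 had higher values with the cartilage lists, 0.356 to 0.393 with FL and 0.317 to 0.420 with MC. E12.5 replicate 1 had 0.177 to 0.244 with them. The 6 forelimb genes checked as markers had summed peak cover of 9.95 to 17.3 kb in FL, 0 to 1.52 kb in MC and 2.09 to 16.4 kb at E12.5, with Hoxd10 and Hoxa10 at 0 in every MC list. At Tbx5, a forelimb identity gene, E12.5 replicate 1 had 9.97 kb and replicate 2 had 0.532 kb. The 6 cartilage marker genes had 16.6 to 22.0 kb in FL, 25.2 to 35.0 kb in MC and 15.0 to 62.1 kb at E12.5. The 6 jaw genes had 6.54 to 7.80 kb in FL, 13.8 to 16.9 kb in MC and 13.8 to 25.1 kb at E12.5. Of other cell types, 4 endothelial genes had 2.29 to 4.11 kb in FL, 3.25 to 5.53 kb in MC and 4.17 to 23.4 kb at E12.5, and 4 genes of neurons and Schwann cells had 0.805 to 3.19 kb, 2.85 to 8.61 kb and 2.92 to 23.6 kb in the same groups. The 4 blood genes had 2.90 to 3.75 kb in FL, 4.43 to 6.51 kb in MC and 4.16 to 12.6 kb at E12.5, with Gata1 at 0 in every list. The 3 tendon genes had 5.58 to 8.81 kb in FL, 5.06 to 7.38 kb in MC and 7.77 to 8.01 kb at E12.5, with Tnmd at 0 in every list. The part of such differences between lists in the choice of regions was not tested.

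The sequence of limb-kept regions is shown at promoters, where 17 regions wholly contained at least 1 promoter window. These regions held 18 promoters, 15 of them of protein-coding genes. The promoters of the 6 best ranked protein-coding ones are shown, because a known start lies inside the merged region there. Whether the peak of each list covers that start was not examined. Each window runs from 250 bases before to 50 bases after the start, is credited to RefSeq on build GRCm38 (mm10), and is written 5′ to 3′ on the gene's strand. Capitals mark any of 7 motifs, each searched on both strands. The letters GGGCGG were searched for the GC box and CCAAT for the box of that name. For the TATA box the letters were TATAAA, and for homeodomain proteins TAATTA. The E-box was taken as CAGCTG and the AP-1 site as TGANTCA. SOX letters were either ACAAAG or else ACAATG. Npy5r, a receptor for neuropeptide Y, lies at chr8:66688045-66688344 on the minus strand.
Npy5r: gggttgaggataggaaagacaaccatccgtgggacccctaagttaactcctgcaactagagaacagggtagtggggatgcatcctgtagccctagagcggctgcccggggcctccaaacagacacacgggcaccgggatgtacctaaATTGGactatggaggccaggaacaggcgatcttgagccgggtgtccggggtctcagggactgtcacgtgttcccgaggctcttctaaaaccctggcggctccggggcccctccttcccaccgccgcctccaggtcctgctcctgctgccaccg
Slc22a3, an organic cation transporter, lies at chr17:12507655-12507954 on the minus strand.
Slc22a3: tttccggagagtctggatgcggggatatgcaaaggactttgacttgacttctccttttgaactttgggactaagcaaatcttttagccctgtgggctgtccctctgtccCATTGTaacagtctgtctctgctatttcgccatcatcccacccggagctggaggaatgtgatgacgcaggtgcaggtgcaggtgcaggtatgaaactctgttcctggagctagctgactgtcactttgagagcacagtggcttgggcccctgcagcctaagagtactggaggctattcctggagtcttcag
Trpm3, a calcium-permeable channel, has a start inside its longer gene span at chr19:22447958-22448257 on the plus strand.
Trpm3: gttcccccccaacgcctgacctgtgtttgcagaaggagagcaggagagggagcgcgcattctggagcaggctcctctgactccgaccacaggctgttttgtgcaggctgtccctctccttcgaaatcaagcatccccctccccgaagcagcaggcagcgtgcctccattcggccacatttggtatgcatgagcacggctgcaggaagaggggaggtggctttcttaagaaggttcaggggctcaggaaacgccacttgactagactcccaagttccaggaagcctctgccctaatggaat
Stra6, the membrane receptor for retinol-binding protein, also has a start inside its longer gene span, at chr9:58133825-58134124 on the plus strand.
Stra6: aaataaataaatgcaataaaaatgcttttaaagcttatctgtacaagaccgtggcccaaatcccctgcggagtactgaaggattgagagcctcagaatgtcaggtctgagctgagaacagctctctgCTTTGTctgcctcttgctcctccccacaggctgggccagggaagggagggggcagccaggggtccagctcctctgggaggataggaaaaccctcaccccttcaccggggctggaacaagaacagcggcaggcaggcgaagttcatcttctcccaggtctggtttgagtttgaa
Plekha6, a protein with a pleckstrin homology domain, likewise has a start inside its longer gene span, at chr1:133245847-133246146 on the plus strand.
Plekha6: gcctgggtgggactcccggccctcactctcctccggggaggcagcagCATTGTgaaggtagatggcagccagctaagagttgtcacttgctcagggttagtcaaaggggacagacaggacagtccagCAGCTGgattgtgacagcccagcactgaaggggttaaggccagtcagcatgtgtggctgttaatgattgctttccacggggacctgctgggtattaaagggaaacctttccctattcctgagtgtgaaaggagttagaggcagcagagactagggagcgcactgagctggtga
Sfrp5, a secreted antagonist of Wnt signals, lies at chr19:42202203-42202502 on the minus strand.
Sfrp5: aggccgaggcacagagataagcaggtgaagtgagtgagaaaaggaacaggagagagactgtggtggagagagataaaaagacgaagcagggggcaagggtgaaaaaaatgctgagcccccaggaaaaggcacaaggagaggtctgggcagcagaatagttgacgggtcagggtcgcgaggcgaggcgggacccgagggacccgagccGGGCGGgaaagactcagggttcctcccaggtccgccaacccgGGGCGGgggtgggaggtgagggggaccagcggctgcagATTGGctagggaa

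Among these windows the Trpm3 promoter held none of the motifs, the Npy5r promoter held a CCAAT box, and the Sfrp5 promoter held GC boxes and a CCAAT box. The Slc22a3, Stra6 and Plekha6 promoters held SOX letters, and the Plekha6 promoter also held the E-box. Over all 18 promoters, SOX letters stood in 11 (61.1%), against 28.8% of 27025 RefSeq promoter windows. The E-box stood in 27.8% against 16.1%, the GC box in 22.2% against 35.9%, the CCAAT box in 22.2% against 37.9%, the TATA box in 11.1% against 14.2%, AP-1 in 5.56% against 7.93% and the homeodomain letters in 0% against 5.31%. These shares of a small set are descriptions, and letters in a window are not bound sites. The median number of CG dinucleotides per window was 6 in the 18 promoters, 7 in all promoters and 22 in 11370 promoters touched by regions with peaks in both cartilages and at E12.5. The promoters inside limb-kept regions ranged from 2 CG in Frmd4a to 41 in Crmp1.

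One limb-kept region, chr7:79504468-79505672, contained a microRNA gene, Mir9-3, and on the opposite strand the hairpin of miR-9b. miR-9 is known as a microRNA of neural progenitors. Its mature strands are given with the seed (bases 2 to 8) in capitals, since no pair of the 4 shares a seed.
mmu-miR-9-5p: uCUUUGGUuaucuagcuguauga
mmu-miR-9-3p: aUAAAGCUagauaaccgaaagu
mmu-miR-9b-5p: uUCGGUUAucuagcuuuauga
mmu-miR-9b-3p: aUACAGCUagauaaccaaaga
The region had the authors' peak scores of 339.8, 220.5 and 325 in FL replicates 1 to 3, and 527 and 299 in E12.5 replicates 1 and 2. A peak was thus called in every FL list and none in MC, whose nearest peak was 3.15 kb away. It lay under no combined H3K27ac peak of either cartilage.

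Limb-kept regions were a small remainder of the E12.5 chromatin that FL shared. Of 20518 regions with peaks in both E12.5 lists and at least 2 FL lists, 369 (1.80%) had no MC peak, 983 (4.79%) had a peak in 1 MC list, 2340 (11.4%) in 2 and 16826 (82.0%) in 3. The mirror class, with both E12.5 lists, at least 2 MC lists and no FL list, held 486 regions and is called Meckel-kept. Within limb-kept regions, 94 had peaks in all 3 FL lists and 275 in 2. The pairs were unequal: 142 regions were called in FL replicates 2 and 3, 103 in 1 and 2, and 30 in 1 and 3. Just outside the rule lay 604 regions with 1 FL list and no MC list, and the 983 regions with 1 MC list, where that list was MC replicate 3 in 556, replicate 2 in 256 and replicate 1 in 171.

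**Figure D1:**
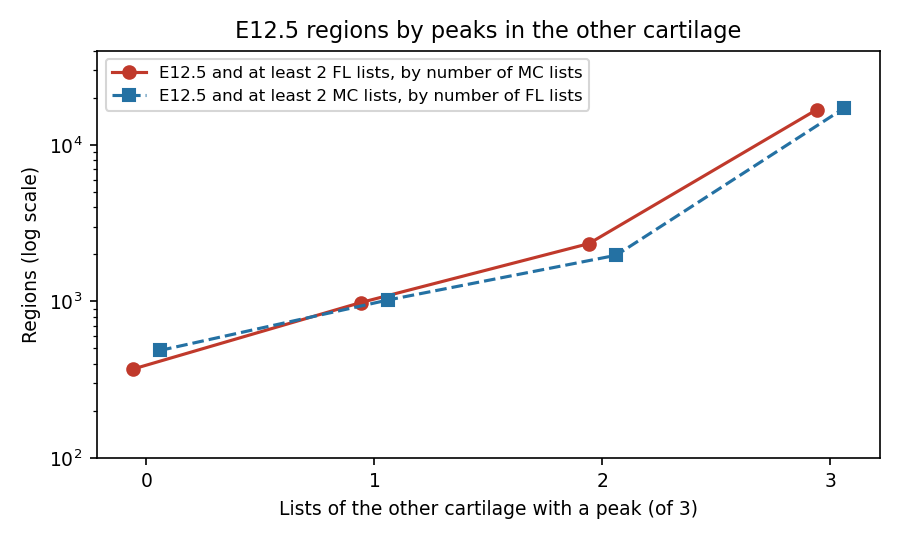
Number of regions (log scale) with peaks in both E12.5 lists, by how many lists of the other cartilage held a peak. Red circles are regions with at least 2 FL lists and blue squares regions with at least 2 MC lists; both lines rise with each further list, and the leftmost points are the 369 limb-kept and 486 Meckel-kept regions.

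The number of limb-kept regions depended on single libraries. Rebuilding the rule without FL replicate 1, 2 or 3, and asking for both others, gave 237, 123 and 198 regions. Without MC replicate 1, 2 or 3 it gave 543, 624 and 930. Without E12.5 replicate 1 it gave 2880, and without E12.5 replicate 2 it gave 748. Taking the same number of best-scored peaks from every list gave 78. The rule was therefore also applied to 7 lists at a time, and the regions it chose were read in the eighth list.

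Regions chosen by 7 lists often had a peak in the MC list that was left out. When an FL list was left out, the 7 others were merged, both other FL lists and both E12.5 lists had to hold a peak, and no MC list could. FL replicates 1, 2 and 3 then held a peak in 40.1% of 237, 75.6% of 123 and 48.0% of 198 regions chosen without them. When an MC list was left out, MC replicates 1, 2 and 3 held a peak in 31.9% of 543, 40.9% of 624 and 60.3% of 930 regions chosen for having no peak in the other MC lists. The 3 FL and 3 MC values overlapped, with FL replicate 1 below MC replicates 2 and 3. Their means were 54.6% for FL and 44.3% for MC (n = 3 each, ranges as given), a difference of 10.2 percentage points. These shares are a description with no test, because they largely rearrange the peak calls that the rule used and the sets of regions share members. The difference was -0.317 without the value of FL replicate 2, 17.4 without FL replicate 1, 3.96 without MC replicate 1 and 18.2 without MC replicate 3, and it was -11.4 with lists of equal length. E12.5 replicates 1 and 2 held a peak in 13.6% of 2880 and 49.5% of 748 regions chosen without them. As a base, 75.9%, 84.8% and 76.7% of all regions with both E12.5 peaks held one in FL replicates 1 to 3, and 75.4%, 79.6% and 83.2% in MC replicates 1 to 3. The Meckel-kept rule gave 25.5%, 59.4% and 23.2% in FL lists and 48.4%, 49.6% and 55.0% in MC lists. The absence of a peak in 3 MC lists does not say that the chromatin was closed. In bulk tissue, fewer cells with an open site and less open chromatin per cell cannot be told apart.

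**Figure D2:**
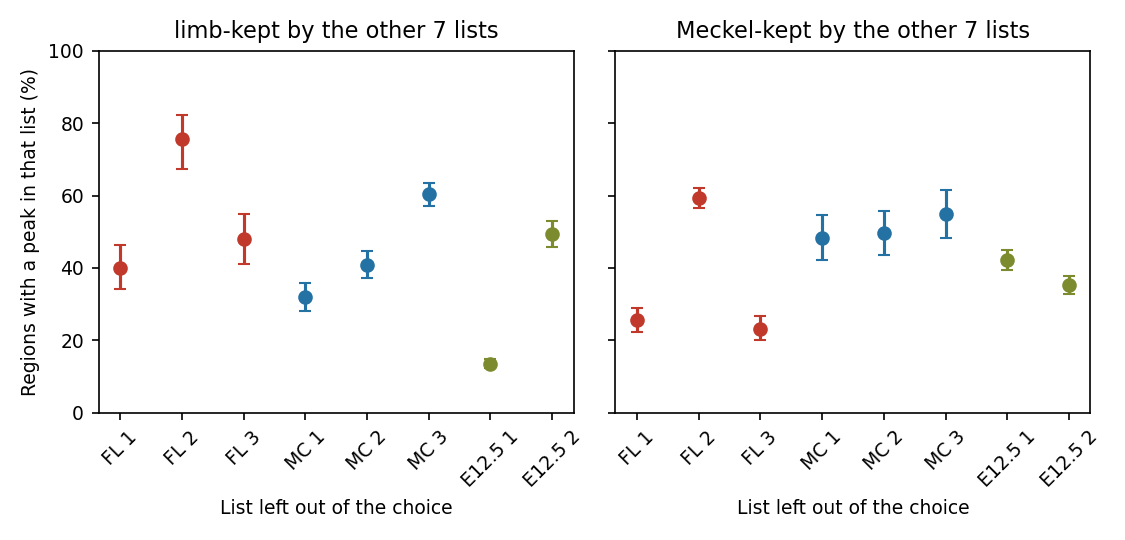
Percentage of regions with a peak in the list that was left out when the regions were merged and chosen (x axis), for the limb-kept rule (left) and the Meckel-kept rule (right), with 95% Wilson intervals, which cover counting error only. FL values for the limb-kept rule lie between 40.1% and 75.6%, MC values between 31.9% and 60.3%, so the groups overlap.

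The peaks in limb-kept regions ranked low within their lists. The score of an ATAC peak is the authors' own, with 200 as the lowest in every list, and it served here to order the peaks of one list. The best peak per region had a median percentile of 33.4, 46.3 and 31.9 in FL replicates 1 to 3, and of 37.0 and 48.2 in E12.5 replicates 1 and 2. In regions with peaks in both cartilages and at E12.5, called kept in both, the medians were 81.7, 85.6 and 79.1 in FL and 75.9 and 85.6 at E12.5. Classes at the edge of the rule also ranked low: regions with 1 MC list had medians of 40.6, 49.9 and 37.0 in FL, and Meckel-kept regions had 40.5, 30.3 and 33.7 in MC replicates 1 to 3. Taking for each region its lowest percentile over the calling lists, the median was 13.6, the highest was 56.5, and 4 of 369 were over 50. These ranks describe peaks that the rule used, and no test was made. The authors' combined FL ATAC list, made over the FL libraries, held a peak in 63.7% of limb-kept regions (95% Wilson interval 58.7 to 68.4), the combined MC list in 0.542% and the combined E12.5 list in 91.3%. In the combined FL list this share was 94.7% for regions with 3 FL lists and 53.1% for those with 2. Those combined lists rest on the same libraries as the rule. When the regions were chosen anew without MC replicate 1, 2 or 3, the combined MC list held a peak in 1.29%, 11.4% and 20.5% of them. The combined MC list itself was unchanged, so these values are not shares of the 369 regions.

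**Figure D3:**
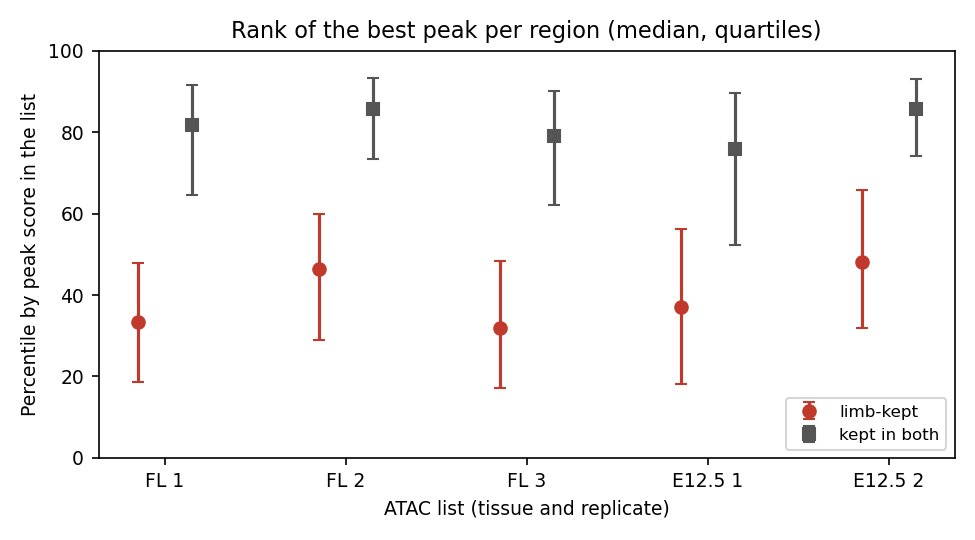
Percentile by the authors' peak score within each list (y axis) of the best peak per region, as median with lower and upper quartiles, for limb-kept regions (red circles) and regions kept in both cartilages (grey squares). Limb-kept medians are between 31.9 and 48.2 in all 5 lists, below the 75.9 to 85.6 of regions kept in both.

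Limb-kept regions were narrower and lay farther from gene ends than regions kept in both. Their median width was 1212 bp, against 1034 bp in E12.5 regions with no peak in either cartilage (E12.5-alone), 1704 bp in Meckel-kept regions, 1954 bp in regions kept in both and 782 bp in all merged regions. A start or end of a gene lay within 1 kb of 36 of them (9.76%, Wilson interval 7.13 to 13.2), against 13.7% of all merged regions, 10.2% of E12.5-alone, 22.0% of Meckel-kept and 58.7% of kept-in-both regions. Leaving out E12.5 replicate 1 lowered the limb-kept share to 5.07%. Within 1 kb of a transcription start, counted without chromosome 18, lay 9.60% of limb-kept and 11.8% of all merged regions. The best ranked near a gene end were at Npy5r, Bahcc1, Hsp90aa1, Slc22a3 and Mrps27. At Hsp90aa1, a heat shock chaperone, the scores were 1726 and 572 in FL replicates 2 and 3, and 320.3 and 538 at E12.5. At Mrps27, a mitochondrial ribosome protein, they were 583, 623 and 626 in FL, and 309 and 418 at E12.5. An MC peak lay 0.860 kb from the Hsp90aa1 region and 0.235 kb from the Mrps27 region, so both were next to MC peaks. The centres of 194 regions (52.6%) were inside a gene. The nearest MC peak was a median of 4.46 kb away and within 1 kb of 68 regions (18.4%). Best peaks of all calling FL and E12.5 lists shared at least 1 base in 288 regions (78.0%, against 87.9% of kept-in-both regions). The summit of the FL peak was a median of 212 bp from that of the E12.5 peak, against 104 bp in regions kept in both, so peaks joined in 1 region did not always sit on the same spot.

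Combined H3K27ac peaks covered similar shares of limb-kept regions in FL and MC. The rule did not use this mark. In the authors' combined lists, 219 regions (59.3%, Wilson interval 54.3 to 64.2) lay under an FL peak and 221 (59.9%, 54.8 to 64.8) under an MC peak, against 55.4% and 55.5% of all merged regions. Both marked 186 regions, FL alone 33 (8.94%, against 9.19% of all merged regions), MC alone 35 (9.49%, against 9.26%) and neither 115. These shares are near the background, and the combined lists have no replicates and no test. Of the 94 regions with 3 FL lists, 63.8% lay under FL and 59.6% under MC H3K27ac. Combined peaks over limb-kept regions had a median width of 17.1 kb in FL and 12.8 kb in MC. Among all combined peaks the medians were 7.36 kb in FL and 5.51 kb in MC. A wide peak is more likely to overlap any region, and widths over other classes were not taken. Whether the larger medians are particular to limb-kept regions is therefore not known.

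Lists of single libraries covered far lower shares, and FL and MC overlapped there too. FL replicates 1 to 3 marked 3.25%, 3.25% and 2.17% of limb-kept regions, and MC replicates 1 to 3 marked 2.44%, 3.52% and 3.79%. The lowest value was that of FL replicate 3 and the highest that of MC replicate 3. The means were 2.89 ± 0.626% in FL and 3.25 ± 0.717% in MC (SD, n = 3 each), a difference of -0.361 percentage points (two-sided exact permutation p 0.500; 0.1 is the smallest possible). Counting regions within 1 kb of a peak turned the difference to 1.17. Over all merged regions the means were 3.52 ± 0.393% in FL and 3.79 ± 0.415% in MC, and in kept-in-both regions 9.38 ± 1.12% and 9.02 ± 1.41%. A p above the threshold does not show that the cartilages carried equal H3K27ac there, and 8 to 14 marked regions per library limit what could be seen. Combined lists marked 76.8% of kept-in-both regions in FL and 85.4% in MC. Single lists marked a far lower share even of those regions, so the test had little power to show a difference in either direction.

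**Figure D4:**
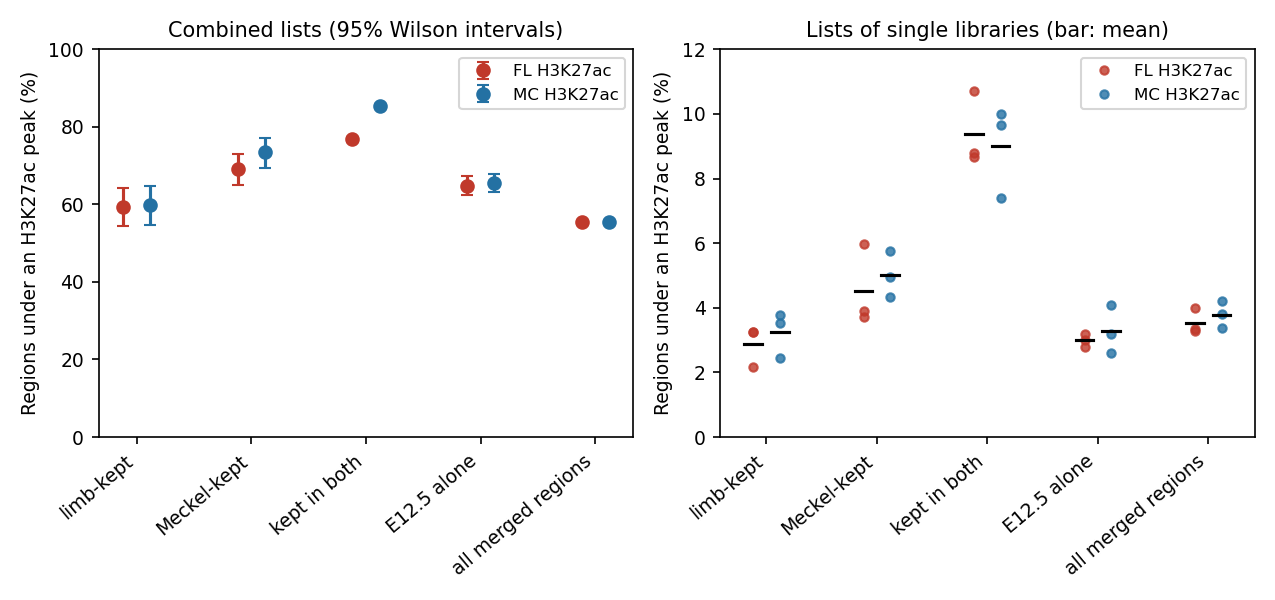
Percentage of regions under an H3K27ac peak in FL (red) and MC (blue), by region class. Combined lists are on the left with 95% Wilson intervals and lists of single libraries on the right, 1 point per library with a bar at the mean; in limb-kept regions the combined shares are 59.3% in FL and 59.9% in MC.

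Most genes nearest to limb-kept regions were on none of the gene lists used here. The listed ones came from the Hox, limb, jaw and shared mesenchyme lists and, at similar or lower shares of merged regions, from lists of other tissues. Each region was given to the smallest protein-coding gene that held its centre, or else to the nearest within 1 Mb. This named 358 of the 17583 genes with any merged region (2.04%). Of 366 genes on 14 hand-written lists, 21 (5.74%) had a limb-kept region and 24 a Meckel-kept one. Listed genes held many merged regions, so the share of each list's merged regions is given beside its count, for comparison with 0.235% overall. In the limb patterning list, 4 of 30 genes had a limb-kept region (0.451% of its 886 merged regions) and 1 a Meckel-kept one. In the mandibular arch and neural crest list the counts were 4 of 37 (0.558% of 717) and 6. Shared mesenchyme genes gave 5 of 30 (0.440% of 1136) and 2, and Hox genes 2 of 37 (1.82% of 110) and 0. Signalling genes gave 2 of 55 (0.135% of 1484), and the cartilage list gave 0 of 25, from 537 merged regions, against 3 with a Meckel-kept region. Tendon and connective tissue genes gave 3 of 28 (0.549% of 546), epithelium 1 of 22 (0.463% of 216), neuron and Schwann cell genes 1 of 23 (0.410% of 244), skeletal muscle 1 of 25 (0.275% of 364), and hypertrophy and bone 1 of 21 (0.272% of 367). Endothelium, blood and reference genes gave 0, from 355, 188 and 68 merged regions. The counts are small, no list was tested, and a count of 0 in so few regions is near the background. The count of 21 listed genes was 13 without FL replicate 3, 8 without FL replicate 2, 38 and 42 without MC replicates 2 and 3, and 92 and 37 without E12.5 replicates 1 and 2.

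The limb patterning genes described here had regions whose lowest percentile was 30.8 or less. Near Fgf10, the mesenchymal signal that starts limb outgrowth, chr13:118885789-118887245 lay 93.9 kb from the gene. Its peak scores were 377, 524 and 301 in FL replicates 1 to 3, and 282 and 1057 in E12.5 replicates 1 and 2. All 3 FL lists called it, no H3K27ac peak covered it, and the nearest MC peak was 34.7 kb away. Near Lmx1b, which sets dorsal limb identity, chr2:33664417-33666037 scored 247, 261 and 251 in FL, and 719.8 and 348 at E12.5. The closest MC peak was 0.0820 kb off, and both cartilages marked it with H3K27ac. In Emx2, a homeobox gene needed for the shoulder blade, chr19:59459073-59460227 scored 230.5 and 391 in FL replicates 1 and 2, and 306 and 264 at E12.5. It lay under MC but not FL H3K27ac. Of these 3 the Fgf10 region was farthest from an MC peak, and those of Lmx1b and Emx2 had an MC peak within 0.3 kb.

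Hox genes gave 2 regions, both without H3K27ac in either cartilage. Within Hoxb3, chr11:96311166-96312236 scored 421 and 560.4 in FL replicates 2 and 3, and 283 and 358 at E12.5. In Hoxc4, chr15:103034438-103035608 scored 266 and 234 in FL replicates 2 and 3, and 223 and 251 at E12.5, near the lowest score listed. The closest MC peak was 9.89 kb from the Hoxb3 region and 25.8 kb from the Hoxc4 region, and FL replicate 1 called neither.

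Genes of the mandibular arch were also nearest to limb-kept regions. Osr2, a zinc finger factor of palate and joints, held chr15:35298542-35299380, with scores of 421 and 250.2 in FL replicates 1 and 2, and 307 and 680.3 at E12.5. It did not lie under H3K27ac of either cartilage. The region nearest Nr2f2, a nuclear receptor, was 233 kb away and scored 237, 279 and 201 in FL, and 202 and 695 at E12.5. Its lowest percentile, 0.755, put it at the floor of 1 FL list.

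Shared mesenchyme genes completed the developmental regions. At Lef1, a nuclear partner of beta-catenin, the region lay 90.6 kb off and scored 766, 223 and 437 in FL, and 235 and 839 at E12.5. Within the lists, its FL percentiles were 73.0, 9.75 and 52.1. Osr1, a zinc finger factor of lateral mesoderm and connective tissue, had scores of 284, 276 and 219.9 in FL, and 336 and 314 at E12.5, under H3K27ac of both cartilages. Prrx2, a homeobox gene of limb and face mesenchyme, had 288 and 216 in FL replicates 2 and 3 and 1501 and 235 at E12.5, at percentiles of 93.7 and 15.6 within the E12.5 lists. For Runx1t1, a transcriptional corepressor, the values were 324 and 369.6 in FL replicates 2 and 3, and 282 and 1375 at E12.5. The region nearest Cdh11, a mesenchymal cadherin, was 605 kb away, with 614 and 285 in FL replicates 2 and 3, and 290.1 and 932 at E12.5. Tgfbr3, a co-receptor for TGF-beta on the signalling list, had 353 and 228 in FL replicates 1 and 2, and 207 and 319.7 at E12.5. Over these 13 developmental regions, both cartilages marked 5 with H3K27ac, MC alone 1, FL alone 0 and neither 7. Over all merged regions, both marked 46.2%, MC alone 9.26%, FL alone 9.19% and neither 35.3%. With so few regions, no difference from those shares was tested. The combined FL ATAC list held a peak in 9 of the 13, the exceptions being the regions of Osr1, Prrx2, Runx1t1 and Tgfbr3. Best peaks of the calling lists shared no base in the Osr1 and Prrx2 regions. The nearest MC peak was 0.107 kb from the Osr1 region and 2.10 kb from the Prrx2 region. For Runx1t1, Tgfbr3, Lef1 and Cdh11 it was 9.72, 12.6, 33.6 and 69.3 kb away.

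**Figure D5:**
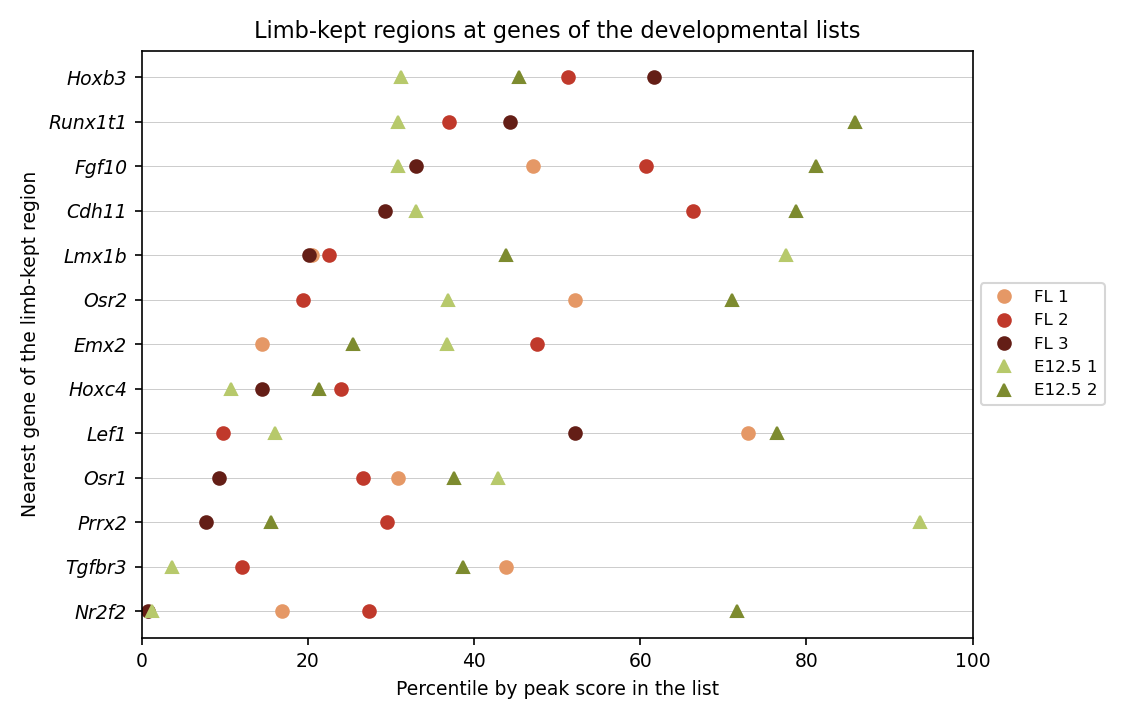
Percentile by the authors' peak score (x axis) of 13 limb-kept regions nearest to genes of the limb, Hox, mandibular, shared mesenchyme and signalling lists (rows, best lowest percentile at the top); circles are FL and triangles E12.5 lists. The lowest percentile per region runs from 31.2 at Hoxb3 to 0.755 at Nr2f2, and a missing circle is a list without a peak.

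The best ranked regions lay near genes of varied roles. The first, chr15:79323163-79326515 in Pla2g6, a phospholipase A2, scored 499 and 487 in FL replicates 2 and 3, and 1063 and 465 at E12.5, under H3K27ac of both cartilages. It had an MC peak 0.461 kb away. The second, chr6:139908524-139909993 in Pik3c2g, a class II phosphoinositide 3-kinase, scored 986, 459 and 812 in FL, and 501 and 1642 at E12.5, with no H3K27ac. Near Smoc2, a secreted matrix-associated protein, chr17:14492279-14494838 scored 491, 477 and 429.8 in FL, and 428 and 619 at E12.5, under H3K27ac of both. The Npy5r region, chr8:66687211-66688440, scored 395, 789.7 and 516 in FL, and 504 and 1380.1 at E12.5, with no H3K27ac. The rest of the 10 best lay near Aldoart1, Dclk2, Gsg1l, Tbc1d1 and Bahcc1, and 1 had no gene within 1 Mb. In 9 of the 10 the combined FL ATAC list also held a peak, the Tbc1d1 region being the exception. Neither cartilage marked 6 of the 10 with H3K27ac, both marked 4 and none was marked in FL alone. Over all merged regions the shares were 35.3% for neither, 46.2% for both and 9.19% for FL alone. No difference from them was tested in so few regions.

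Of the 17 regions with a whole promoter inside, both cartilages marked 6 with H3K27ac, FL alone 3, MC alone 1 and neither 7. FL alone marked 8.94% of all limb-kept regions and 9.19% of all merged regions. Both marked 46.2% of all merged regions, MC alone 9.26% and neither 35.3%. Those under FL H3K27ac alone were at Trpm3, Stra6 and Gnmt, a glycine methyltransferase. The Trpm3 region scored 509, 1070 and 621 in FL, and 299.9 and 645 at E12.5, and its nearest MC peak was 109 kb away. The Stra6 region scored 536 and 401 in FL replicates 2 and 3, and 476 and 287 at E12.5. The Gnmt region scored 255 and 292 in FL replicates 1 and 3, and 405 and 346 at E12.5. At Plekha6, with 471 and 291 in FL replicates 2 and 3 and 352 and 486 at E12.5, MC alone carried H3K27ac. At Slc22a3 (365 and 479 in FL replicates 2 and 3, 313 and 546 at E12.5) and Sfrp5 (318 and 265 in FL replicates 1 and 3, 422 and 460.3 at E12.5) neither did.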

How the data were processed

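Peaks of ATAC-seq and H3K27ac CUT&Tag were analysed as the authors deposited them. Genrich (ATAC-seq) and SEACR (CUT&Tag) called the peaks after Trim Galore, Bowtie2 and SAMtools, on build mm10, per the submitters' processing notes; versions and thresholds are not given in the sources used here. The deposited ATAC lists give a peak score and a −log10 p value per peak, and the deposited H3K27ac lists give total and highest signal. Both served only to order the peaks of one list. Combined lists are the authors', with no n and no test. Hi-C and 4C samples were not analysed here.

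Peaks of 8 ATAC lists on the autosomes and X were merged, and 1 bp of overlap with a peak counted as a call. The members, gene lists and comparisons were chosen with earlier results of these data known. The reading of left-out lists, promoter windows and motifs were added after seeing the data. No genome was used, so motifs were searched only in RefSeq promoter windows, which cover no gene of chromosome 18. Gene spans came from RefSeq GRCm38.p6 without strand. Distances to the named gene run from a region's centre. Distances to MC peaks, and the 1 kb limit at gene ends, run from a region's edges. Named regions were the 10 whose lowest percentile over calling lists was highest, those of listed developmental genes (3 of which are not reported here), the best 5 near a gene end, and genes with 2 or more regions; regions holding a promoter or a microRNA were added after their values were seen. Shares carry 95% Wilson intervals, for counting error only. Groups of libraries were compared with two-sided exact permutation tests. As a check of the code, the rule was applied to 8 simulated lists of 4000 regions with no missed or stray peaks. It returned 258 of 258 planted regions with 0 false calls. Such clean lists do not show how accurate the rule is on real ones. Replicate numbers were not taken as pairs in the main comparison. Deviations of same-numbered FL and MC lists correlated by 0.0038 to 0.045 for ATAC-seq and -0.0013 to 0.0058 for H3K27ac. Lists of unlike number were not compared, so these values cannot settle whether same-numbered libraries were linked. The scripts ran on Python 3.11.15 (pandas 2.3.3, numpy 2.4.6, scipy 1.17.1); figures came from matplotlib 3.10.9.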

Additional observations from a re-analysis of the deposited data

How the results depend on the processing

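The count of 369 regions was 94 with 3 of 3 FL lists and 78 with the same number of best-scored peaks from every list; leaving out 1 library gave 123 to 2880. It stayed within 1.5 times of 369 with peaks above the lower quartile of score (251), peaks covering 20% of a region (339) and a base common to the best peaks (288). The difference in combined H3K27ac shares, FL minus MC, was -0.542 percentage points, moved to 4.26 with 3 FL lists and to 4.07 with equal numbers of H3K27ac peaks, and ran from -2.80 to 2.44 without single libraries. The share in the combined MC ATAC list was 0 with equal lists and 7.57% above the lower quartile. It was 0.174% to 20.5% in regions chosen anew without single libraries. The share near a gene end was 6.38% with 3 FL lists, 14.1% with equal lists, 15.5% above the lower quartile, 16.5% at 2.5 kb, and 5.07% to 12.7% without single libraries. Listed genes with a region numbered 8 with 3 FL lists, 3 with equal lists and 8 to 92 without single libraries. The mean of the FL median percentiles was 37.2, and 46.3 with 3 FL lists. The single-library H3K27ac difference, -0.361, turned to 1.17 within 1 kb of a peak and ran from -0.768 to 0 without single libraries; with same-numbered libraries as a replicate block it was -0.361 (exact sign-flip p 0.750). The difference of 10.2 between left-out FL and MC lists turned to -11.4 with equal lists and ran from -0.317 to 18.2 without single values. The cause of these shifts was not tested. Motifs in windows of the regions themselves were not run, for want of a genome. Unknown read depth limits every absence of a peak.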

Other observations

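Limb-kept regions lay on all autosomes and X. The median gap between neighbours on a chromosome was 3.41 Mb, and 12 of 349 gaps were under 100 kb. Neither the gaps nor the number of genes with more than 1 region was set against other sets of regions. They do not say whether limb-kept regions cluster. The genes nearest to more than 1 region numbered 7: Lmf1, an endoplasmic reticulum protein for lipase maturation, to 3, and Ephb3, Fhod3, Rps6kc1, Tmem121, Col15a1 and Itpk1 to 2 each. The closest pair, near the ephrin receptor gene Ephb3 on chromosome 16, was 340 bp apart. Chromosome 12 held 26 regions (7.05% of limb-kept, against 4.41% of all merged regions), and X held 1 (0.271% against 1.25%).

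The other 5 listed genes with a limb-kept region came from lists outside limb, jaw and mesenchyme development: Pax7, a muscle satellite cell factor, Eln, the elastin gene, Tfap2c, Foxa2 and Mbp, the myelin basic protein gene. The Pax7 region scored 293 and 361 in FL replicates 1 and 2, and 418 and 348 at E12.5, and lay under H3K27ac in FL and not in MC. FL alone marked 9.19% of all merged regions. The Eln, Tfap2c and Mbp regions lay under H3K27ac of both cartilages, and the Foxa2 region under neither.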
